A study of Mus musculus with 6 samples.

Results

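Rgs5-high smooth muscle cells are vascular smooth muscle cells (VSMCs) of the aortic root and ascending aorta that carry many transcripts of Rgs5, which encodes a regulator of G-protein signalling. Their members were chosen on measured values: Myh11 at or above 5, Dcn under 20 and Rgs5 at or above 20 per 10000 transcripts of the cell, counted as unique molecular identifiers (UMIs), with no UMI of Enpep or Notch3. This rule found 417 cells among 24972 that passed the quality filter, or 417 of the 9744 cells that met the Myh11 and Dcn limits, called the VSMC pool here. The remaining 9327 pool cells were the comparison. Single-cell suspensions came from 6 female mice of 16 weeks on a 129SVE background: 4 controls and 2 mice with Loeys-Dietz syndrome (LDS). Of the controls, 2 had the genotype Tgfbr1+/+ and 2 the genotype Tgfbr1+/+; Wnt2CRE; EGFP-L10a, in which a Cre line driven by the Wnt2 promoter marks cells of the cardiac neural crest (CNC) with a tagged ribosomal protein. Both LDS mice were Tgfbr1M318R/+, heterozygous for a missense allele of a TGF-β receptor. The deposited matrix holds 6 libraries, told apart by the number that ends each cell barcode, and nothing in the sources used here ties a number to a mouse or to one of the several days on which the mice were processed. No genotypes are therefore compared, libraries are numbered 1 to 6 as in the barcodes, and no p-value is given: agreement between libraries stands in for it.

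VSMCs of the ascending aorta descend from the CNC and from the second heart field, and neural crest cells of the pharyngeal arches are patterned by homeobox factors. In the embryo, endothelin-1 acts through its receptor Ednra and Gq proteins on arch neural crest, and Dlx5, Dlx6 and Hand2 act downstream of it, while Prrx1 and Prrx2 mark arch and limb mesenchyme. Rgs5 speeds the hydrolysis of GTP by Gq and Gi subunits, damps signals of contractile receptors and is known from pericytes and arterial smooth muscle. Enpep and Notch3, whose absence the rule required, are transcripts that the study used to mark position along the ascending aorta, so genes that differ with position are tied to the rule.

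Dlx5, Dlx6 and Prrx2 were higher in Rgs5-high cells than in the other pool cells of every library. Msx2, Tfap2b and Pax9, transcription factors of the arches and of the neural crest, were also higher in every library. All of these genes passed the filter on low values, given below, through the Rgs5-high cells alone, so they had to be higher. The gene for Dlx6 lies on chromosome 6 from 6863334 to 6868568 on the plus strand of mm10, and Dlx5 starts 9236 bases beyond its end, from 6877805 to 6882085 on the minus strand. Dlx6os1, a noncoding RNA from 6820189 to 6871592 on the minus strand, runs across Dlx6 in antisense. Whether reads were counted by strand is not given in the sources used here, so reads of Dlx6 and Dlx6os1 may not be fully separated. Prrx2 lies on chromosome 2 (30834972 to 30881251), Msx2 on chromosome 13 (53466884 to 53473074), Tfap2b on chromosome 1 (19208914 to 19238576), Pax9 on chromosome 12 (56691767 to 56712822) and Rgs5 on chromosome 1 (169655501 to 169695813).

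Homeodomain proteins of the Dlx, Msx and Prrx families bind a TAATT core, so the bases before the RefSeq start of Msx2 and Tfap2b are shown, from the GRCm38.p6 build, 5′ to 3′ on the strand of the gene and with each TAATT, or AATTA on the other strand, in capitals. The stretch of Msx2 is chr13:53472781-53473030 (minus strand) and that of Tfap2b is chr1:19211804-19212053 (plus strand), each 250 bases long.
Msx2: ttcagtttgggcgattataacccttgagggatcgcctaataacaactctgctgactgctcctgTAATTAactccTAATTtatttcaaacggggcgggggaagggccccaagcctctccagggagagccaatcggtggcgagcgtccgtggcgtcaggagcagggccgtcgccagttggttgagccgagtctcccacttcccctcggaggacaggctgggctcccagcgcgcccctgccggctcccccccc
Tfap2b: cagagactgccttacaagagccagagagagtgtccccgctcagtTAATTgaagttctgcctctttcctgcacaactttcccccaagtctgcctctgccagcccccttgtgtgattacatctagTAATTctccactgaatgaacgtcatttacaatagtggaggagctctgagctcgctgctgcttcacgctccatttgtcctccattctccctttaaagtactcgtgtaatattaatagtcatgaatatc
Msx2 held 2 TAATT and 1 AATTA, which overlaps the first TAATT, and Tfap2b held 2 TAATT. These starts lie inside the genes as GENCODE M21 draws them, by 294 bases for Msx2 and 3140 bases for Tfap2b, and the 3′ libraries do not show which start was used. The core was found in 8223 of the 32851 RefSeq promoters over the same 250 bases, in 17.5% of the 6385 tested genes with a promoter and in 27 of the 82 genes called higher that had one (32.9%). These shares are a description, and a match is not evidence of binding.

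The libraries differed in how many Rgs5-high cells they held. The share of the VSMC pool was 5.84% in library 1 (94 cells), 4.21% in library 2 (36 cells), 8.03% in library 3 (125 cells), 4.23% in library 4 (74 cells), 1.76% in library 5 (56 cells) and 4.01% in library 6 (32 cells), a median of 4.22%. The 95% exact binomial intervals, which cover counting error only, spanned 6.73 to 9.50% for library 3 but 1.34 to 2.28% for library 5, so those libraries stood apart from each other beyond counting error, while libraries 2, 4 and 6 had overlapping intervals. Since genotype and library cannot be matched, the difference was not tested against it.

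**Figure D1:**
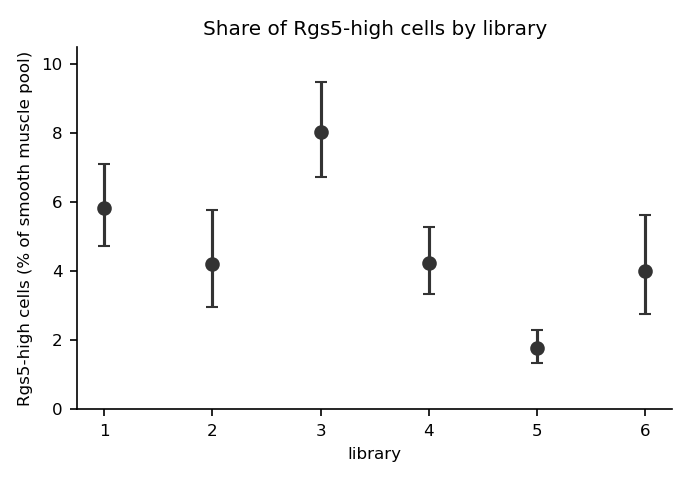
Share of Rgs5-high cells in the VSMC pool (%, y axis) in each of the 6 libraries (x axis), with 95% exact binomial intervals for counting error. Library 3 had the highest share, 8.03%, and library 5 the lowest, 1.76%.

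Across the 6 libraries 1863 to 6395 cells passed the filter, with 18218282 to 38105145 UMIs. Median depth was close in both groups of cells, 6649 UMIs and 2485 genes per Rgs5-high cell against 7255 UMIs and 2513 genes per other cell, and the rule itself disfavours deep cells, in which an Enpep or Notch3 UMI is more likely to be seen. Rgs5-high sums held 252889 to 845532 UMIs per library. The same barcode sequence occurred in several libraries for 152 of the cells kept, 2 of them Rgs5-high. Cells among the 5% with the highest doublet scores of their library made up 1.68% of Rgs5-high and 2.49% of other cells.

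Markers placed these cells with VSMCs. All 417 had UMIs of Acta2, Tagln and Myl9, and 98.6% had Cnn1, which encodes calponin. Myh11, smooth muscle myosin heavy chain, was used by the rule as a lower limit and stood at 2279 CPM (UMIs of the gene per 1000000 UMIs of the summed cells) against 2553 CPM in the other cells and 13.1 CPM in fibroblast-like cells (Dcn at or above 20, Myh11 under 5 per 10000). Acta2 was at 22887 CPM against 28747 CPM, and in fibroblast-like cells at 608 CPM. Rgs5 was on the scale of the rule 20.1 to 462 UMIs per 10000 in the members, with a median of 45.4, and summed to 6002 CPM in members against 163 CPM in the other pool cells. This difference is what the rule selected and is no finding.

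Levels per library show how far the 2 groups of cells were apart. Prrx2 was at 158, 119, 89.9, 130, 68.3 and 214 CPM in the Rgs5-high sums of libraries 1 to 6, and at 7.47, 5.83, 4.74, 4.76, 2.31 and 5.00 CPM in the other cells. Dlx5 was at 38.0, 16.0, 14.2, 45.6, 46.6 and 47.5 CPM against 4.48, 2.82, 1.65, 1.89, 0.982 and 2.14 CPM. The lowest Rgs5-high library exceeded the highest library of other cells for both genes, and the spread among Rgs5-high sums was wide, since libraries 2 and 3 had less Dlx5 than the other 4. Dlx6 was at 54.6, 20.5, 21.3, 36.0, 15.5 and 63.3 CPM against 2.92, 2.31, 1.45, 1.08, 0.245 and 1.43 CPM. Msx2 was at 21.4, 27.4, 11.8, 21.6, 9.32 and 75.1 CPM against at most 1.43 CPM in any library of other cells. These sums rest on few molecules: 391 UMIs of Prrx2, 97 of Dlx5, 109 of Dlx6, 71 of Msx2, 69 of Tfap2b and 36 of Pax9 over all Rgs5-high cells, and in library 5 only 3 UMIs of Msx2.

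**Figure D2:**
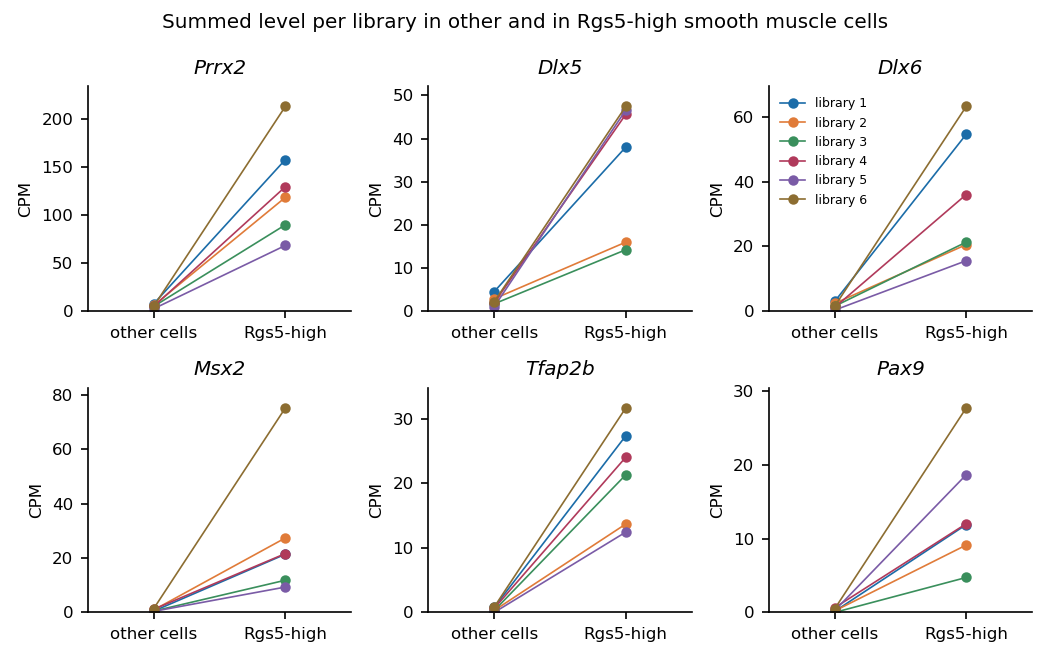
Summed level (CPM, y axes from 0) of 6 transcription factor genes in other VSMC pool cells and in Rgs5-high cells, 1 line per library. Every line rises from left to right, and Prrx2 reached 68.3 to 214 CPM in Rgs5-high cells against 2.31 to 7.47 CPM in the other cells.

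To describe a difference per gene, the log2 ratio of CPM, Rgs5-high over other cells, was taken within each library with a prior of 0.5 UMI, and a gene was called higher when the median over 6 libraries was at least 1 and every library was above 0 (lower: at most -1 and every library below 0). Of 8111 genes tested, 107 were called higher (1.32%) and 64 lower (0.789%), and the median over all tested genes was 0.06. Whatever its size, the ratio was above 0 in every library for 750 tested genes and below 0 for 407. Of the 107 genes, 57 passed the filter of 10 CPM through the Rgs5-high sum alone, and 35 of the 64 passed through the other cells alone, so that these had to differ. As over all the genes below, the same cells gave the selection and the values, and the calls are a description.

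Prrx2 led the factors with a median of 4.24 on the log2 scale (lowest library 4.08, highest 4.95), Dlx6 of 3.70 (2.65 to 4.26), Tfap2b of 3.68 (3.17 to 4.63), Msx2 of 3.66 (2.48 to 4.50), Pax9 of 3.33 (2.85 to 4.08), Dlx5 of 3.26 (2.11 to 4.25) and Dlx6os1 of 3.12 (2.11 to 4.33). Each of these genes passed the 10 CPM filter through the Rgs5-high sum alone and so had to be higher. The cells that make up 4.03% of all pool UMIs held 52.5% of the pool's Prrx2 UMIs, 50.2% of Dlx6, 36.7% of Dlx5, 56.8% of Msx2, 69.0% of Tfap2b and 64.3% of Pax9. Dlx1 and Dlx2, paralogs of Dlx5 and Dlx6, did not reach 10 CPM and were not called, with 14 of 20 and 20 of 31 pool UMIs in Rgs5-high cells. After each cell was thinned to 3000 UMIs, Msx2 kept a median log2 ratio of 2.48 but was no longer above 0 in every library, whereas Prrx2 (3.85), Dlx5 (3.32) and Dlx6 (3.14) were still called. Tfap2b lost its call, at a median of 2.80, when cells with a UMI of Higd1b, Vtn, Kcnj8 or Abcc9 were left out, which leaves 217 members.

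The other genes described here were among the 15 called higher with the largest ratios. All of these 15 were under 10 CPM in the other cells. They passed the filter through the Rgs5-high sum alone and so had to be higher. Grin2b, a subunit of NMDA-type glutamate receptors, had the largest median log2 ratio, 4.28 (1.71 to 4.85), with 93 UMIs in 46 Rgs5-high cells against 48 UMIs in all other pool cells. Library 2, with 2 Grin2b UMIs, gave the lowest of these values. Negr1, a neuronal adhesion protein of the IgLON family, had a ratio of 3.65 (3.26 to 5.47), and 64 of its 108 UMIs came from library 1. The adhesion protein gene Mdga2 followed at 3.07, and Gng2, a G-protein γ subunit, at 3.17. Prss12, a secreted serine protease of synapses, was at 3.57, Adamtsl1, an ADAMTS-like matrix protein, at 3.37, Pianp at 3.00 and Eps8, an actin regulator, at 2.96. Among these, Negr1, Mdga2, Pianp and Eps8 were not above 0 in every library after thinning, and Mdga2 fell under the 10 CPM filter without library 1. Gria3, a subunit of AMPA-type glutamate receptors, was also called higher, at 2.45 (1.31 to 2.84), and passed the filter in the same way.

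Further genes called higher were chosen for description after their values were seen. Sfrp2, a secreted Frizzled-related protein, was at 391 CPM in Rgs5-high and 48.6 CPM in other cells, a median log2 ratio of 2.89 (2.20 to 3.72). Frzb, another protein of that kind, was at 141 CPM against 33.1 CPM (1.89, from 1.09 to 3.99). Gdf10, a BMP-like ligand, had a ratio of 1.99 (1.71 to 3.21). Lamc3, a laminin γ chain, was at 2.60, Tshz2, a zinc finger factor, at 2.93, Sema3c, a semaphorin, at 1.71 and Esr1, an oestrogen receptor, at 1.67 (0.87 to 2.94).

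**Figure D3:**
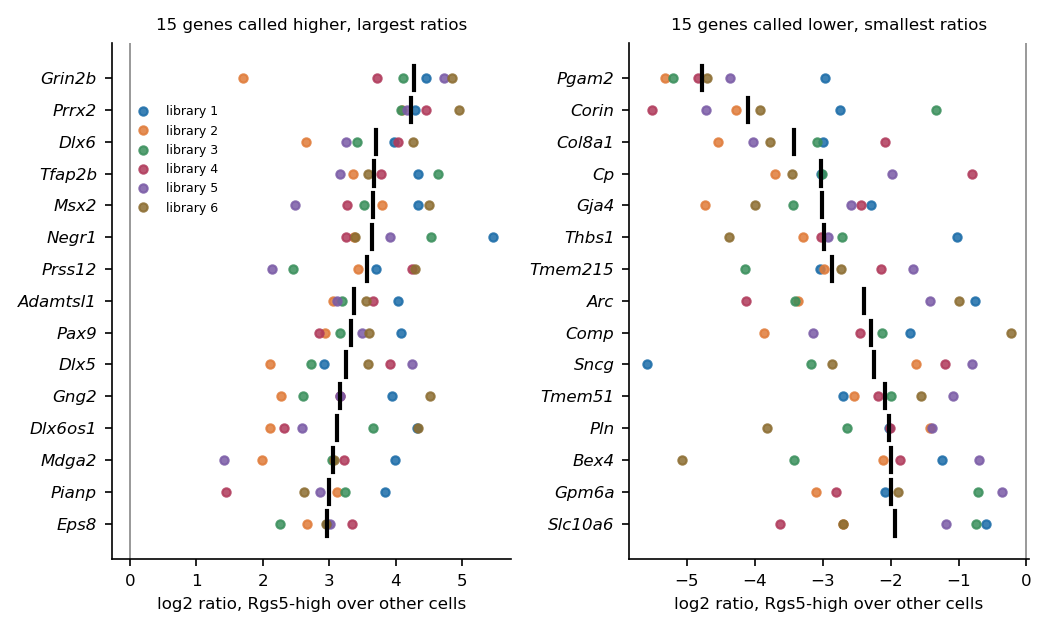
Log2 ratio of CPM, Rgs5-high over other VSMC pool cells (x axes), for the 15 genes called higher with the largest and the 15 called lower with the smallest median, with 1 point per library and a bar at the median over 6 libraries. Grin2b in library 2, at 1.71, lies apart from its other libraries, and the genes called lower spread more widely than those called higher.

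Some of these transcripts were also present outside smooth muscle. In fibroblast-like cells Prrx2 was at 54.6 CPM, Prss12 at 50.4 CPM, Eps8 at 40.3 CPM and Negr1 at 16.9 CPM, while Grin2b (0.0341 CPM), Msx2 (0.556 CPM), Tfap2b (1.78 CPM) and Dlx6 (2.04 CPM) were low there. Of the 107 genes called higher, 76 were higher in fibroblast-like cells than in other pool cells (71.0%, against 46.0% of all tested genes), and 36 were higher in fibroblast-like than in Rgs5-high cells. The 12 genes of the fibroblast list summed to 1382 to 2610 CPM in Rgs5-high sums and 989 to 1870 CPM in other sums, higher in 6 of 6 libraries. Of the 8 tested, 2 were called higher, Mfap5 and Pi16, beside 1.32% of all tested genes. Dcn, limited by the rule, was at 166 CPM against 122 CPM. With a Dcn limit of 5 per 10000, 377 members remained, 115 genes were called higher and 104 of the 107 were among them.

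A UMI of Dlx5, Dlx6 or Prrx2 was seen in 199 of 417 Rgs5-high cells (47.7%, 95% interval 42.8 to 52.6%) and in 383 of 9327 other cells (4.11%, 3.71 to 4.53%). In leukocyte-like cells, which should lack these genes, 1 of 493 cells had one (0.203%), at a median of 5040 UMIs per cell against 6649 in Rgs5-high cells. Prrx2 was seen in 41.0%, Dlx6 in 17.5% and Dlx5 in 16.5% of Rgs5-high cells, and in 2.54%, 0.868% and 1.47% of other cells. With each cell thinned to 3000 UMIs, which left out 31 Rgs5-high and 460 other cells, the shares with any of the 3 genes were 33.4% and 2.01%. Per library, 60.6, 55.6, 39.2, 54.1, 26.8 and 56.2% of Rgs5-high cells in libraries 1 to 6 had such a UMI, each above the 1.86 to 7.81% of other cells. Library 5 was lowest in this share as in the share of Rgs5-high cells.

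The factors tended to be seen in the same cells. Of the 69 Rgs5-high cells with a Dlx5 UMI, 35 also had a Dlx6 UMI, as did 35 of the 73 with Dlx6, and 79 of the 107 cells with either had Prrx2. UMIs of at least 2 of Dlx5, Dlx6, Prrx2, Msx2 and Tfap2b were seen in 115 Rgs5-high cells (27.6%) and in 70 other cells (0.751%), while 208 Rgs5-high cells (49.9%) had none. Deeper cells show more genes of any kind, so these counts are a description.

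The levels rose over the classes of Rgs5 on both sides of the limit of the rule. Among pool cells without an Enpep or Notch3 UMI, Prrx2 was at 2.22 CPM in 5152 cells with no Rgs5 UMI, 7.80 CPM over 0 to 5, 17.1 CPM from 5 to 10, 27.8 CPM from 10 to 20, 70.2 CPM from 20 to 40 and 172 CPM at 40 or more Rgs5 UMIs per 10000. Dlx5 rose from 1.03 to 40.8 CPM, Dlx6 from 0.723 to 47.8 CPM, Sfrp2 from 37.3 to 460 CPM and Foxf1, a forkhead factor of lateral mesoderm, from 16.6 to 123 CPM between the lowest and the highest of these classes. In each of the 6 libraries the highest class exceeded the lowest for all of these genes. Just inside the limit, 74 cells from 20 to 25 had 53.4 CPM of Prrx2, and just outside it 77 cells from 16 to 20 had 31.3 CPM. Gata4, a cardiac and aortic root transcription factor, took another course: it was at 17.1 CPM (95% Poisson interval 15.8 to 18.4) with no Rgs5 UMI, already at 5.02 CPM (3.69 to 6.68) over 0 to 5, and between 3.50 and 4.63 CPM in the higher classes. Myh11 lay between 2262 and 2583 CPM over the classes, and its highest class exceeded the lowest in 1 of 6 libraries. Acta2 was at 28916 CPM with no Rgs5 UMI and 21366 CPM at 40 or more. Its highest class exceeded the lowest in 0 of 6 libraries. In the whole pool, Gata4 was at 19.8 CPM with no Rgs5 UMI and 7.74 CPM (4.33 to 12.8) at 40 or more. Cells that met the Rgs5 limit but were left out for an Enpep or Notch3 UMI held 17.3 CPM of Gata4, on 11 UMIs. That level was near the 16.6 CPM of all other pool cells, so low Gata4 was not seen in every cell with high Rgs5.

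**Figure D4:**
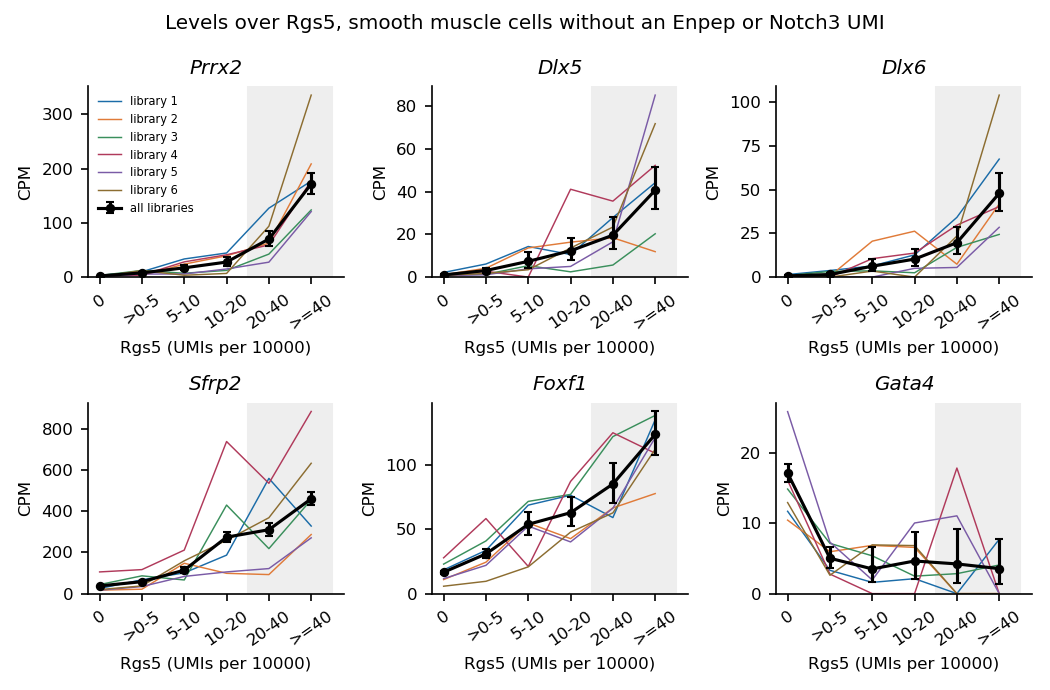
CPM (y axes from 0) of 6 genes in VSMC pool cells without an Enpep or Notch3 UMI, by Rgs5 UMIs per 10000 (x axes). Black points are sums over all libraries with 95% Poisson intervals for counting error, thin lines are libraries, and grey marks the range of the rule. Prrx2, Dlx5, Dlx6, Sfrp2 and Foxf1 rose over the classes, and Gata4 fell between 0 and the next class.

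Of the 40 genes of an arch patterning list, 22 were tested and 8 were called higher: Prrx2, Dlx6, Tfap2b, Msx2, Dlx5, Dlx6os1, Foxf1 and Ednra. All of these except Foxf1, 7 genes, passed the 10 CPM filter through the Rgs5-high sum alone and so had to be higher, and the count is not to be read against the 1.32% over all tested genes. The list holds Dlx5, Dlx6 and Prrx2, which were named with these cells in view, so the count is not independent of the choice. None was called lower. Ednra, the endothelin receptor upstream of the arch programme, had a median log2 ratio of 1.48 (0.11 to 2.11) on 65 UMIs, and lost its call after thinning and with other limits on Rgs5 or Myh11. Its Gq subunit gene Gnaq (0.55, from 0.23 to 0.89), the endothelin-converting enzyme gene Ece1 (0.81, from 0.28 to 1.24) and Prrx1 (0.73, from 0.42 to 1.21) were above 0 in 6 of 6 libraries without reaching the limit. That held for 750 of the 8111 tested genes, called genes included. Hand2, the other factor of that route named above, went the other way, at -0.52 (-1.57 to -0.21). Twist1 (-0.26), Edn1 (-0.06) and Msx1 (-0.10) had libraries on both sides of 0. The median over the tested genes of the list was 0.38, beside 0.06 over all genes.

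Position and lineage factors split. Of 20 tested, none was called higher and 3 lower, Gata4, Tbx2 and Tbx20. All 3 passed the filter through the other cells alone and so had to be lower, and the count is not to be read against the 0.789% over all tested genes. Tbx2, at -1.36, was not called when Rgs5-high cells were taken whatever their Enpep and Notch3 (-0.35, from -0.76 to 0.45), nor against other cells without both (-0.84), with an Rgs5 limit of 10 or after thinning. Gata4 was at 4.75, 0, 3.55, 7.20, 6.21 and 0 CPM in Rgs5-high sums of libraries 1 to 6, 12 UMIs in all, and at 10.8, 12.3, 14.0, 17.6, 24.3 and 14.9 CPM in the other cells. Its median log2 ratio was -1.78 (-3.56 to -1.09), and every Rgs5-high sum was below every sum of other cells. After thinning, Gata4 was not called, at a median of -2.01. The anterior Hox genes had positive ratios without reaching the limit: Hoxb4 was at 0.83 (0.44 to 1.46) and Hoxa3 at 0.61 (0.24 to 0.78). Their cofactor gene Meis3 was at 0.86 (0.63 to 1.18).

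Several of the genes called lower changed with the Enpep and Notch3 condition. Pgam2, muscle phosphoglycerate mutase, had 1 UMI in Rgs5-high cells against 2251 in the others, or 94.5-fold fewer per total (95% counting interval 16.9 to 3735). Pln, phospholamban, an inhibitor of the calcium pump SERCA, was at 14.3, 29.6, 5.91, 16.8, 28.0 and 11.9 CPM in libraries 1 to 6 against 59.9, 81.5, 39.9, 71.6, 75.8 and 193 CPM, a median log2 ratio of -2.02 (-3.82 to -1.39). Corin, a protease that activates natriuretic peptides, was at -4.10, with 14 of its 15 Rgs5-high UMIs in library 3. Col8a1, a collagen chain of the vessel wall, was at -3.43, the connexin gene Gja4 at -3.01, Cp, ceruloplasmin, at -3.02 and Thbs1, thrombospondin 1, at -2.97. Pgam2, Corin, Col8a1, Gja4 and Cp passed the 10 CPM filter through the other cells alone and so had to be lower. With the comparison limited to the 6734 other cells that also lacked Enpep and Notch3, 34 genes were called lower, 32 of them among the 64, and 98 were called higher, 92 of them among the 107. Pln was then at -0.87 (-2.36 to 0.13) and not called. Pgam2, at 0.321 against 8.86 CPM, and Gja4 fell under the filter. Gata4 (-1.61), Corin (-2.60), Col8a1 (-2.81) and Thbs1 (-1.70) were still called. Of these, only Thbs1 also reached 10 CPM in Rgs5-high cells.

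Contractile genes were slightly lower and none was called. Of 24 tested, 19 had a negative and 5 a positive median, the list median was -0.12, and their summed level was lower in Rgs5-high cells in 6 of 6 libraries, 60655 to 80955 CPM against 82499 to 88268 CPM. Tagln, transgelin, was at -0.44 (-0.55 to -0.23) and Acta2, smooth muscle actin, at -0.36 (-0.69 to -0.21). Ppp1r14a, an inhibitor of myosin phosphatase, was at -0.65 (-0.78 to -0.23) and Synm, synemin, at -0.64 (-2.90 to -0.02). Carmn, a noncoding RNA that supports the contractile state, was at 0.55 (-0.23 to 0.71), and Mrvi1, a substrate of cGMP kinase, at 0.41 (-0.18 to 0.74). Since the values are shares of a sum, a fall in abundant contractile transcripts and a rise in others cannot be told apart here.

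Of 64 extracellular matrix genes tested, 5 were called higher and 4 lower, beside 1.32% and 0.789% of all tested genes. Of the 5, 2 passed the 10 CPM filter through the Rgs5-high sum alone, Mfap2 among them. Of the 4, 1 passed it through the other cells alone, Col8a1. Such genes had to differ in that direction, so the counts are not to be read against those shares. Over the list, 41 genes had a positive median. The summed level was higher in 6 of 6 libraries, 31710 to 42180 CPM against 26920 to 36890 CPM. The called genes include microfibril proteins: Mfap2 was at 21.2 CPM against 6.26 CPM (1.64, from 1.40 to 1.83; not called after thinning), Mfap5 at 944 CPM against 318 CPM (1.37, from 0.99 to 2.79) and Ltbp2 at 77.3 CPM against 22.1 CPM (1.59, from 0.83 to 1.96). Vcan, the proteoglycan versican, was at 155 CPM against 38.9 CPM (1.84, from 1.28 to 2.70), and Lama2, a laminin chain, was at 1.03. Elastin (Eln) was at 0.58 (0.39 to 0.86), fibulin 5 (Fbln5) at 0.75 (0.47 to 1.72) and fibrillin 1 (Fbn1) at 0.57 (0.43 to 1.15), each above 0 in 6 of 6 libraries and under the limit. Among all 8111 tested genes, 750 were above 0 in every library. Col8a1, Thbs1, Aspn and Tnxb were called lower. The list median was 0.23, beside 0.06 over all genes, and was 0.05 with no filter on low values. The sum of the fibroblast list, which shares Mfap5, was higher in the same 6 libraries (2103 against 1404 CPM over all), and its part in these differences was not tested.

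**Figure D5:**
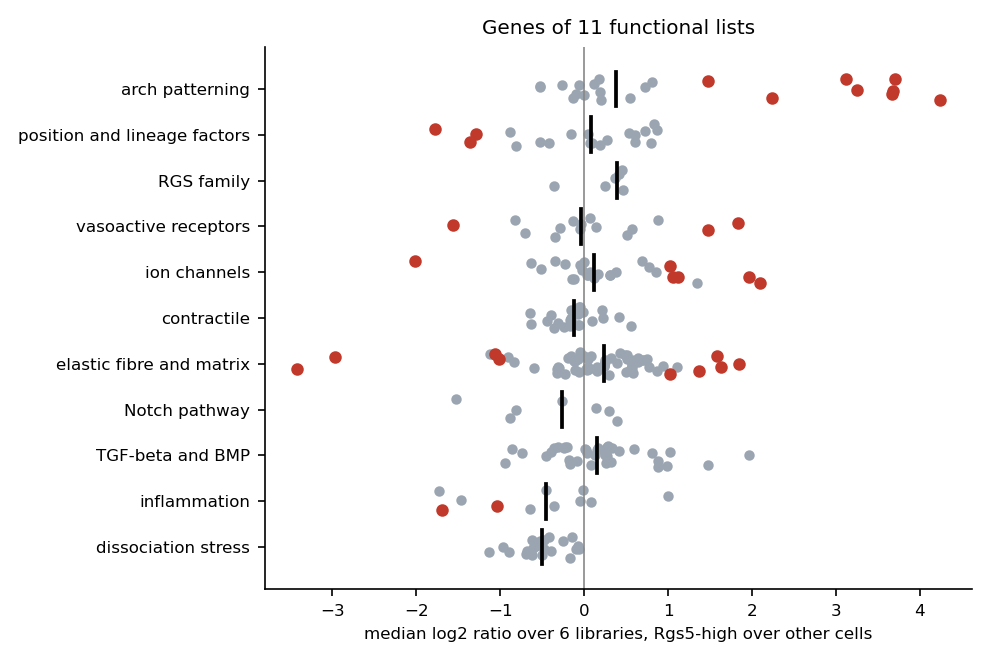
Median log2 ratio over 6 libraries (x axis) of each tested gene of 11 functional lists (y axis, points spread within a row for clarity). Red marks genes called higher or lower, and bars are the medians of the lists, 0.38 for arch patterning and -0.51 for dissociation stress.

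Receptors and channels that set the tone of smooth muscle varied gene by gene. Of 15 vasoactive receptors and effectors tested, 2 were called higher, Ednra and Calcrl, and 1 lower, the nucleotide receptor gene P2ry6 (-1.56). Over all tested genes, 1.32% were called higher and 0.789% lower. Ednra passed the filter through the Rgs5-high sum alone and P2ry6 through the other cells alone. Both had to go their way, so the counts are not to be read against those shares. P2ry6 was not called with an Rgs5 limit of 10 (-0.87), with a prior of 2 UMIs (-0.87), after thinning or without cells with pericyte transcripts. Calcrl, the receptor component for CGRP and adrenomedullin, was at 71.3, 66.1, 34.3, 64.8, 46.6 and 115 CPM in Rgs5-high sums of libraries 1 to 6 against 20.1, 13.6, 13.0, 16.4, 12.4 and 30.0 CPM (1.83, from 1.36 to 2.19). Gucy1a1, a subunit of the nitric oxide receptor, was at -0.82 (-0.99 to -0.51). Of 27 ion channel genes, 5 were called higher: Kcnc4 (2.09, from 1.56 to 2.79), Piezo2 (1.97, from 1.55 to 3.23), Kcnj8 (1.12), Ano1 (1.06) and Cacna1d (1.02). Of these, Kcnc4 and Piezo2 passed the filter through the Rgs5-high sum alone and so had to be higher. The count is therefore not to be read against the 1.32% of all tested genes. Kcnc4 encodes a voltage-gated potassium channel, Piezo2 a mechanically gated channel, and Kcnj8 the pore of vascular KATP channels. Pln was the 1 gene of this list called lower. No other RGS gene was called: of 6 tested, Rgs4, which starts 45663 bases beyond Rgs5 on chromosome 1, was at 0.25 (-0.94 to 0.79), Rgs7 at 0.46 (-0.85 to 2.27), Rgs7bp at 0.45 (-0.31 to 0.86) and Rgs2 at -0.36 (-0.73 to 0.18).

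Of 37 genes tested from a TGF-β and BMP list none was called, and the list median was 0.15, beside 0.06 over all genes. Tgfbr1, the gene changed in LDS, was at 0.32 (0.17 to 0.55) and Inhbb, an activin subunit gene, at -0.86. The BMP antagonist gene Chrdl1 (1.47, from -2.86 to 1.95) missed the call through 1 library. Of 7 Notch genes tested none was called, and Hes1 (-1.52, from -3.04 to 0.11), Hey2 (-0.89) and Heyl (-0.82, from -1.51 to -0.39), targets of Notch, had negative medians. The rule itself required cells without Notch3, and Hes1 turned to 0.38 (-1.81 to 1.11) when Rgs5-high cells were taken whatever their Enpep and Notch3.

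Among markers of VSMC subgroups, Foxf1, Kcnc4 and Ncam1 were called higher and Pgam2, Pln and Gata4 lower, of 20 tested, beside 1.32% and 0.789% of all tested genes. Kcnc4 passed the filter through the Rgs5-high sum alone, and Pgam2 and Gata4 through the other cells alone. These genes had to go their way, so the counts are not to be read against those shares. Foxf1 was at 106, 70.7, 131, 115, 90.1 and 87.0 CPM in Rgs5-high sums of libraries 1 to 6 against 23.8, 14.0, 27.6, 27.2, 12.9 and 7.38 CPM, and 208 of the 417 cells had a UMI. Ncam1, neural cell adhesion molecule, was at 870 CPM against 397 CPM (1.07, from 0.76 to 1.60). Tes, a LIM-domain protein gene of the ascending aorta, was at 0.53 (0.16 to 1.41) and Ptprz1 at 0.09 (-0.65 to 0.33). Cd74, the invariant chain of MHC class II, was lower in 5 of 6 libraries and not called, at -2.32 (-3.36 to 0.69).

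GFP, the transcript of the CNC reporter, was seen in both groups of cells. Over libraries 1 to 4, which hold nearly all of it although the labels list the reporter in 2 mice, 18 of 329 Rgs5-high cells (5.47%, 3.27 to 8.51%) and 390 of 5442 other cells (7.17%, 6.50 to 7.88%) had a UMI, beside 2 of 336 leukocyte-like cells. By library the levels were 9.50, 20.5, 2.37 and 4.80 CPM against 13.1, 14.1, 6.97 and 9.16 CPM, higher in 1 of the 4. The intervals of both shares overlap, and Rgs5-high cells held 21 GFP UMIs in all. In libraries 5 and 6, 0 of 56 and 0 of 32 Rgs5-high cells had one.

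Pericytes also carry Rgs5, and their markers were mixed in the members. Higd1b had 1 UMI and Vtn 0 UMIs over 417 cells, and Ndufa4l2 was at 6.10 CPM, while the KATP channel genes Kcnj8 (36.2 against 15.2 CPM) and Abcc9 (77.0 against 40.4 CPM) and the receptor gene Pdgfrb (74.1 against 56.7 CPM) were higher than in other pool cells. Notch3, also a pericyte gene, was at 0 by the rule. Another 86 pool cells met the Rgs5 limit but held an Enpep or Notch3 UMI and were left out. In these, Higd1b was at 89.7 CPM, Vtn at 28.3 CPM and Ndufa4l2 at 209 CPM. UMIs of at least 2 of these 3 genes were found in 13 of the 86 and in 1 of the 417 cells. The 86 cells also held Prrx2 (56.7 CPM), Dlx5 (20.5 CPM) and Dlx6 (23.6 CPM) beside the pericyte transcripts. The whole pericyte list of 14 genes summed to 839 to 914 CPM in Rgs5-high and 847 to 1157 CPM in other sums, higher in 2 of 6 libraries. Of the 8 tested genes 1, Kcnj8, was called higher, beside 1.32% of all tested genes. The median of those 8 was 0.28, with 6 above 0, and the part of pericyte transcripts in the other differences was not tested.

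Among lists of other cell types, the endothelial, leukocyte and cardiomyocyte sums were lower in 5 of 6 libraries, and the glial sum was not. The 12 endothelial genes summed to 18.6 to 87.5 CPM in Rgs5-high sums and 37.1 to 115 CPM in others, with Cdh5 at 1 UMI, and Esam was called lower. The 14 leukocyte genes summed to 4.75 to 115 CPM against 6.94 to 138 CPM, with no UMI of Cd3e or Cd79a, and S100a9 was called lower. Cardiomyocyte genes summed to 51.4 to 189 CPM against 112 to 207 CPM with Actc1 and Myl2 at 0, and glial genes to 158 to 457 CPM against 151 to 246 CPM with Sox10 at 0. In the glial list Pmp22 was the 1 gene tested, and the sum was higher in 6 of 6 libraries. Genes of the dissociation response moved with the groups: all 21 tested had negative medians (list median -0.51), the sum was lower in 5 of 6 libraries, and Atf3 was at -0.97 (-1.80 to -0.34), though none was called. Of 11 inflammation genes tested, Vcam1 (-1.70, from -5.89 to -0.10) and Gadd45b (-1.03) were called lower, beside 0.789% of all tested genes. Vcam1, like Esam and S100a9 above, passed the filter through the other cells alone and so had to be lower. The count of inflammation genes is therefore not to be read against that share. Vcam1 was not called against other cells without Enpep and Notch3, with a Dcn limit of 5, after thinning, without high doublet scores or without cells with pericyte transcripts, with medians of -1.98 to -1.36 in these fits, and Cxcl12 was at 1.00 (0.72 to 1.60) in 6 of 6 libraries, just under the limit before rounding. The part of the dissociation response in the other differences was not tested.

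Rgs5-high cells were not uniform. They were divided, as a description, into the 199 cells with and the 218 cells without a UMI of Dlx5, Dlx6 or Prrx2, which had median depths of 6709 and 6480 UMIs and a median of 58.2 and 36.9 Rgs5 UMIs per 10000. Several other genes were higher in cells with such a UMI in 6 of 6 libraries: Msx2 was at 42.5 CPM against 2.60 CPM, Tfap2b at 38.7 CPM against 5.20 CPM, Prss12 at 67.8 CPM against 3.90 CPM and Sfrp2 at 628 CPM against 148 CPM, and Grin2b had 76 UMIs against 17 UMIs. Mia, which encodes a secreted protein of cartilage and melanoma cells, was at 52.0 CPM against 3.25 CPM, and Fez1, a neuronal transport adaptor, at 39.9 CPM against 3.25 CPM. Genes with at least 30 UMIs in the members were compared, without Dlx5, Dlx6 and Prrx2, which define the split. Of the 104 genes called higher among them, 97 had a positive median log2 ratio of cells with over cells without. Their median was 0.90, beside 0.01 over all 8084 genes compared, and 45 were higher in all 6 libraries. Among all 8084 genes, 271 were higher and 234 lower in all 6 libraries. These genes were called in the same cells, and the split used 3 genes of the same calls, so part of this was built in. Negr1 was higher in 5 and lower in 1. Cells without such a UMI held more Heyl (92.3 against 39.3 CPM), Bmp3 (46.8 against 11.4 CPM), Dlg2 (25.3 against 2.53 CPM) and Hand2 (96.8 against 47.5 CPM), each in 6 of 6 libraries. A cell without a UMI may still express a gene at this depth, and the cells with one had more Rgs5, so both sides overlap.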

How the data were processed

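Single-cell libraries were made with the 10x Genomics 3′ v3 chemistry. The authors deposited raw UMI counts of 31055 features in 30716 barcodes as a single matrix. The submitters' processing notes name Cell Ranger 6 and mm10, and the header of the matrix names 4.0.0. As in the study, a cell was kept if its genes lay between 1000 and 5000, its UMIs between 1500 and 25000 and its mitochondrial share below 20%. UMIs were summed over cells of each group and library (Python 3.11.15, numpy 2.4.6, scipy 1.17.1, pandas 2.3.3), and genes with at least 10 CPM in either sum over all libraries were compared, without Rgs5, Myh11, Dcn, Enpep and Notch3. The calling script was checked on simulated counts with known changes. Doublet scores came from scrublet in scanpy 1.11.5. Doublets were otherwise not removed. Depth limits genes with few UMIs, for which single molecules decide a library's value. Intervals are exact at 95% and cover counting error only; cells are not replicates, and no significance test was run on these data. Leukocyte-like cells had at least 3 UMIs of Ptprc, Tyrobp and Cd3e together per 10000, with Myh11 under 5 and Dcn under 20. Coordinates are from GENCODE M21.

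The members and the 18 gene lists were chosen with earlier results of these data known. Genes were named by rule: the 5 marker genes, the top 15 called higher and the bottom 15 called lower by ratio, the 2 highest and 2 lowest of each functional list, and GFP. Genes named beyond it were chosen after their values were seen. The feature Sm3_intact had 0 UMIs. Alternatives changed the limits on Rgs5, Myh11, Dcn, Enpep and Notch3, the depth, the prior, the filters and the libraries.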

Additional observations from a re-analysis of the deposited data

Results flagged for a closer look

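In 92 results with a value in each of the 6 libraries, 6 had a library whose gap to its nearest neighbour was too large a part of the range by Dixon's 95% criterion, and chance alone gives about 1 in 20. Vcam1, an adhesion molecule of inflamed vessels, had a log2 ratio of Rgs5-high over other cells of -5.89 in library 1, against a median of -1.70 and a nearest value of -2.08. Chrdl1, a BMP antagonist, was at -2.86 in library 6, where the median was 1.47 and the nearest value 0.97. Synm, an intermediate filament protein gene, was at -2.90 in library 6 (median -0.64, nearest -0.81). Grin2b was at 1.71 in library 2 (median 4.28, nearest 3.72), and Ppp1r14a at -0.23 in library 3 (median -0.65, nearest -0.60). The glia list, in which Pmp22 was the gene tested, was at 0.75 in library 5 (median 0.31, nearest 0.36). What sets these libraries apart was not tested.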

How the results depend on the processing

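No result changed direction among the counts, lists and shares under any alternative run, and of 1537 values of 73 named genes under alternatives 94 moved by more than 1 SD over the libraries. With an Rgs5 limit of 10 the median share of Rgs5-high cells was 6.68%, the arch patterning median 0.26 and the matrix median 0.19, and with a limit of 40 the matrix median was 0.20. Members taken whatever their Enpep and Notch3 gave 36 genes called lower, 0.56 for arch patterning and 0.16 for matrix, and other cells without Enpep and Notch3 gave 34 lower and 0.16 for matrix. Thinning to 3000 UMIs gave 0.50 for arch patterning, 36.9% in place of 54.8% for the median share of cells with a UMI of Dlx5, Dlx6 or Prrx2, and 79 genes called in each direction, 65 of the 107 and 46 of the 64 among them. The matrix median was 0.27 without cells with pericyte transcripts and 0.28 in 1 sum over all libraries, which called 178 genes higher. With at least 50 CPM, 38 genes were called higher and 18 lower, fewer genes being tested, and the arch patterning median was 0.19. With no filter 141 were called lower, the arch patterning median was 0.19 and the matrix median 0.049. Leaving out each library in turn gave 108 to 123 genes higher, 65 to 81 lower and a matrix median of 0.18 to 0.23. Other causes of these shifts were not tested. A prior scaled to the mean of both totals (116 higher, 70 lower) and leaving out shared barcodes (108 higher, 67 lower) were chosen after seeing the data. No paired analysis was possible because the replicate numbers of the mice cannot be tied to libraries, and the ratios were already taken within each library.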

Other observations

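Il33, an alarmin cytokine, was under the filter of 10 CPM in both groups of cells and was not called, and its median log2 ratio was 1.70, above 0 in 6 of 6 libraries. Barx1, a homeobox factor of the first arch, had a median of 2.17 and was likewise under the filter.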
